A study of Mus musculus with 6 samples.

Results

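The 34 cadherin and non-clustered protocadherin genes were followed in sorted sensory neurons of the embryonic mouse. They were chosen by name alone, as every gene whose symbol is Cdh or Pcdh followed by a number, which gave 23 cadherins and 11 protocadherins of 41388 genes listed. RNA was sequenced from EGFP-positive cells of dorsal root ganglia, which house the cell bodies of sensory neurons, taken from C57BL/6 embryos at 18.5 days post coitum at spinal levels T11 to S1. All animals carried the RetFloxedEGFP allele with Cre recombinase from Scn10a, the gene of the sodium channel NaV1.8 of pain-sensing neurons, so that the green fluorescent protein marked cells of the Ret population that had expressed this Cre. The labels do not state how many copies of Ret remained active, and cells that had expressed the Cre earlier in development would also be marked. The 6 libraries were 3 from females and 3 from males, each named by its sex and a letter. Each female library and male A came from 2 embryos (40 ganglia), male B from 3 embryos (60 ganglia) and male C from 1 embryo (20 ganglia). Male C was entered later than the others, with a genotype label that names RetFloxedEGFP alone, although its title names the same Cre as the other titles.

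Cadherins are membrane proteins that hold cells together in a calcium-dependent way, mostly by binding the same protein on the neighbouring cell. Classical cadherins of types I and II anchor to actin through catenins on their cytoplasmic tails. Non-clustered protocadherins of the delta groups lack the catenin-binding tail and instead recruit regulators of actin assembly and a protein phosphatase. In the nervous system the mix of cadherins on a neuron is known to bear on which cells it sorts with, how its axon bundles and where it forms synapses.

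The stretches of 250 bases before the start sites of 3 members are printed because they set an expressed cadherin and an expressed protocadherin beside a member without any read. Cdh8 and Pcdh17 were the highest cadherin and the highest protocadherin whose RefSeq start site coincided with the deposited gene start. The start site of Cdh22, which had no read in any library, lay 116 bases downstream of the deposited one. The last 116 bases of its stretch therefore fall within the deposited gene, whereas the stretches of Cdh8 and Pcdh17 lie wholly before theirs. The sequences are from RefSeq on GRCm38.p6 and are written 5′ to 3′ on the strand of the gene, with CpG dinucleotides in capitals.
Cdh8, chr8:99416472-99416721, minus strand: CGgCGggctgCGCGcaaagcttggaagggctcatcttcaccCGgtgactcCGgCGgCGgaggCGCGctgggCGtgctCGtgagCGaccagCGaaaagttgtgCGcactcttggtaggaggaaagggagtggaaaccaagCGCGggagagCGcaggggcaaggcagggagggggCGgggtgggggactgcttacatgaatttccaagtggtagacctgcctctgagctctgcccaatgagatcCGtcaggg
Pcdh17, chr14:84443313-84443562, plus strand: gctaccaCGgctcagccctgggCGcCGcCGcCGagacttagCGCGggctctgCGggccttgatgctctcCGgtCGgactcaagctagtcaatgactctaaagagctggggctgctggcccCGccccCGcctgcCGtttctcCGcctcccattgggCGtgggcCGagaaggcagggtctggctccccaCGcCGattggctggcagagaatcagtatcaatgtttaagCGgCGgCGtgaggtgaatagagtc
Cdh22, chr2:165234738-165234987, minus strand: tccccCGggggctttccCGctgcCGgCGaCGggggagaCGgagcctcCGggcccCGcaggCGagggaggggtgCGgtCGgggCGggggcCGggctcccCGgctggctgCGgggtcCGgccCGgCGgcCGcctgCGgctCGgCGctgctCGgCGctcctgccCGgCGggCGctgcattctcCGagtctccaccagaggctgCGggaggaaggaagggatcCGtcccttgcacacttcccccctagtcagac
These stretches held 20 CpGs for Cdh8, 21 for Pcdh17 and 30 for Cdh22, so the member without reads had the most. Of the 34 members, 22 had an entry in the promoter table. Over the same 250 bases the median was 7 CpGs for the 11 of them at 1 RPKM or more and 11 CpGs for the 11 below that level, beside 6 CpGs over 27025 promoters. In 5 of the 22, Pcdh9, Cdh9, Cdh18, Cdh10 and Pcdh15, the RefSeq start lay over 500 bases from the deposited gene start. For the other 17 the medians were 7 CpGs (7 members at 1 RPKM or more) and 12 CpGs (10 members below). The letters TATAAA, searched on both strands, occurred in 2 of the 22, Pcdh8 and Pcdh15, or 9.09%, beside 13.0% of all promoters, and the Pcdh15 window is 1 of the 5 distant ones. None of the 11 entries for members at 1 RPKM or more held them, and the other members at that level had no entry to search. This says only that these letters are not in the window.

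Libraries held between 15693013 and 24033601 counted reads, and male C (15693013) and female A (15807666) were the smallest. The deposited counts were turned into RPKM, reads per kilobase of gene relative to the size of the library, with library sizes scaled by TMM. Scn10a stood at 97.5 to 134 RPKM and Ret at 23.4 to 33.3 RPKM in every library. Marker genes of satellite glia and Schwann cells summed to 915 to 1096 RPKM, with Pmp22 the highest, and fibroblast markers summed to 149.7 to 175.2 RPKM, most of it Dcn, so the sorted RNA also held transcripts of these lists.

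Averaged over the 6 libraries, 18 of the 34 members stood at 1 RPKM or more (52.9%), beside 49.5% of 21474 protein-coding genes. Pcdh7 at 1.01 RPKM was the last above this line and Pcdh18 at 0.994 RPKM the first below it. The median member stood at 1.01 RPKM, beside 0.934 RPKM for protein-coding genes. A few members carried most of the total: Cdh11, Pcdh9, Cdh1, Cdh2, Cdh6 and Cdh8 held 73.2% of the summed member RPKM, between 71.4% and 77.0% by library. The sum over all members was 131.7 ± 16.3 RPKM (SD, n = 6). Type II cadherins gave 65.7 of it, type I cadherins 34.2, delta1 protocadherins 21.5 and delta2 protocadherins 8.29 RPKM. The 18 members included 8 of 13 type II cadherins, 4 of 5 type I cadherins, 3 of 3 delta1 and 2 of 5 delta2 protocadherins. The only other one was Cdh13, of 8 further members.

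**Figure D1:**
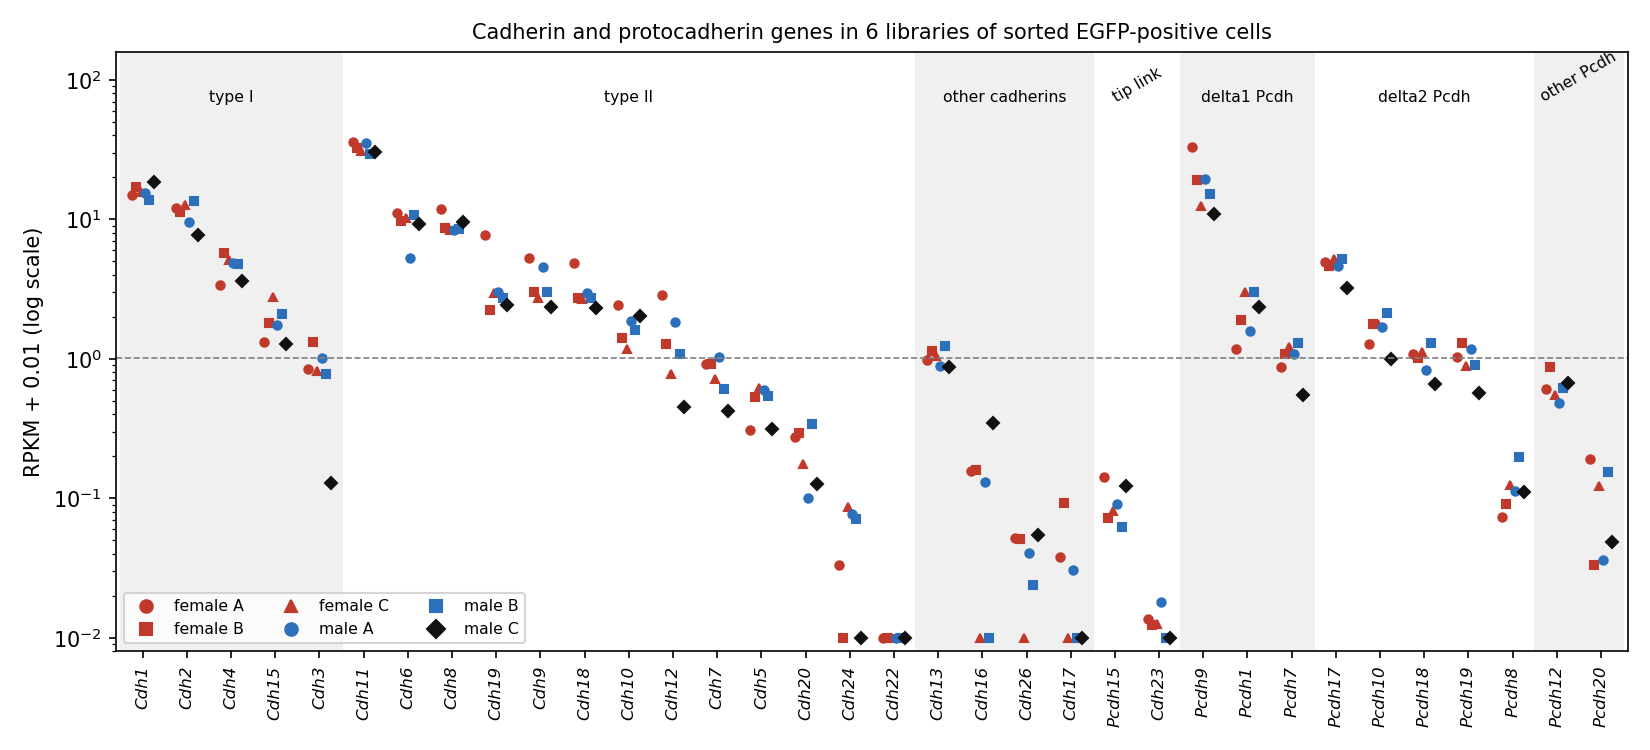
RPKM plus 0.01 on a log axis for the 34 members, grouped by subfamily and ordered by mean level within it; each point is 1 library, red for female, blue for male A and B, black for male C, and the dashed line marks 1 RPKM. Cdh11, Pcdh9, Cdh1 and Cdh2 are the 4 members with a mean above 10 RPKM, and Cdh22 lies at 0 in all 6 libraries.

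Among type I cadherins, Cdh1 and Cdh2 were the main members. Cdh1, E-cadherin, known best as the adhesion protein of epithelia, stood at 14.9, 17.1 and 15.6 RPKM in the A, B and C libraries of females, and at 15.4, 13.8 and 18.5 RPKM in male A, B and C. The libraries lay close together. Epithelial markers summed to 0.292 to 1.20 RPKM, with Krt18 the highest, at no more than 0.405 RPKM, and Krt5 at 0 in every library. The part of RNA from other cells, such as those of the glial list, in the Cdh1 level was not tested. Cdh2, N-cadherin of neural tissue, stood at 12.1, 11.2 and 12.6 RPKM in the females and at 9.64, 13.4 and 7.70 RPKM in male A, B and C. Every library had more Cdh1 than Cdh2, and their ranges did not overlap. Cdh4, the retinal R-cadherin, had 3.35, 5.77 and 5.14 RPKM in the females, against 4.85, 4.81 and 3.62 RPKM in the males. Cdh15, the M-cadherin of muscle, had 1.31, 1.81 and 2.74 RPKM in the females, against 1.75, 2.10 and 1.28 RPKM in the males. Skeletal muscle markers summed to 0.495 to 1.44 RPKM over 7 genes, with Chrna1 the highest at 0.287 to 0.510 RPKM and Myod1 at 0 in every library. Another muscle-determining factor of that list, Myf5, named after its values were seen, had 0.0403 to 0.840 RPKM, and the part of muscle RNA in the Cdh15 level was not tested. Cdh3, the P-cadherin of placenta and skin, averaged 0.807 ± 0.394 RPKM (SD, n = 6) and was the lowest of the type.

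Type II cadherins held the highest member and several of the lowest. Cdh11 (ENSMUSG00000031673), first described in bone-forming and other mesenchymal cells, had 35.9, 32.5 and 31.1 RPKM in the females A to C, and 35.6, 29.2 and 30.3 RPKM in the males A to C. Its 6 values differed by a factor of 1.23 at most, the narrowest range of any member detected in all libraries, and it stood at the 91.6th percentile of protein-coding genes. Fibroblast markers were present at the levels given above, and their part in the Cdh11 level was not tested. Cdh6, the K-cadherin of kidney and neural crest, had 11.2, 9.71 and 10.2 RPKM in the females and 5.26, 10.7 and 9.33 RPKM in male A, B and C. Male A lay well below the other 5. Cdh8, which in the mouse is needed for normal cold sensing, had 11.8, 8.70 and 8.32 RPKM in the females and 8.38, 8.59 and 9.59 RPKM in the males. Female A was the high library here, and all 6 values lay above the whole range of the next gene in the order, Pcdh17.

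Cdh19, known from neural-crest-derived glia and their precursors, had 7.77 RPKM in female A against 2.25 to 3.02 RPKM in the other 5 libraries. The glial list summed to 950.5 RPKM in female A, inside the range of the others, and the part of glial RNA in the Cdh19 value was not tested. Cdh9, Cdh18, Cdh10 and Cdh12 are type II cadherins known mostly from brain neurons. Cdh9 had 5.32, 3.01 and 2.72 RPKM in the females and 4.57, 3.01 and 2.34 RPKM in male A, B and C. Cdh18 had 4.88, 2.73 and 2.67 RPKM in the females, against 2.94, 2.73 and 2.29 RPKM in the males. Both were highest in female A and lowest in male C. Cdh10 ranged between 1.17 RPKM in female C and 2.41 RPKM in female A, with a median of 1.73 RPKM. Cdh12 had 2.88, 1.28 and 0.774 RPKM in the females and 1.84, 1.07 and 0.441 RPKM in male A, B and C, a range of 6.53 times between libraries. The remaining type II members stood below 1 RPKM. Cdh7, known from neural crest of the chick, averaged 0.761 RPKM, Cdh5, the VE-cadherin of blood vessels, 0.476 RPKM, and Cdh20 0.210 RPKM. Cdh24 had at most 5 reads in a library, with 10.41% of its exon bases shared with another gene, and Cdh22 had none.

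The tip-link cadherins Cdh23 and Pcdh15, whose proteins join the sensory hairs of the inner ear, were near the floor. Cdh23 had 0 to 3 reads per library. Pcdh15 had 23 to 39 reads and 0.0854 ± 0.0314 RPKM (SD, n = 6), counted over 18453 exon bases of a gene that spans 1547 kb. Of the atypical cadherins, Cdh13, the T-cadherin held by a lipid anchor, averaged 1.01 ± 0.143 RPKM (SD, n = 6), with 0.857 RPKM in its lowest library, male C, a median of 1.00 RPKM and 1.22 RPKM in its highest, male B. The kidney and intestine cadherins Cdh16 and Cdh17 and the epithelial Cdh26 had at most 15, 9 and 3 reads in a library. A count of 0 allows up to 3 reads, or 0.125 to 0.191 CPM by library; this limit covers counting error alone, since PCR copies are not independent molecules.

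Among delta1 protocadherins, Pcdh9 was far above the rest and varied most in absolute terms. It had 33.0, 19.1 and 12.5 RPKM in the females A to C, and 19.4, 15.2 and 10.9 RPKM in the males A to C. Female A had 3.03 times the level of male C, and Pcdh9 exceeded Cdh1 in 4 of 6 libraries, so the order of these 2 was not fixed. Pcdh1 had 1.17, 1.88 and 3.03 RPKM in the females and 1.58, 3.01 and 2.36 RPKM in the males. Its highest libraries, female C and male B, were also those with the highest sum of immediate early genes. That sum was 402.5 and 381.8 RPKM against 51.5 to 255 RPKM in the other 4, with Fos the highest gene of the list. Female C and male B were also the most alike pair of libraries over all tested genes (correlation 0.9899), and genes of other lists shared the pattern. Apoe of the glial list, named after its values were seen, had 263.5 and 268 RPKM there, against 108 to 155.3 RPKM elsewhere. The part of any of these in the Pcdh1 levels was not tested. Pcdh7 had 0.862, 1.07 and 1.21 RPKM in the females, against 1.07, 1.30 and 0.542 RPKM in the males.

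Delta2 protocadherins were led by Pcdh17, known from the grouping of axons and from synapses in the brain. It had 4.91, 4.60 and 5.20 RPKM in the females and 4.64, 5.20 and 3.20 RPKM in male A, B and C. Male C was the low library, and the other 5 lay close together. Pcdh10, which recruits the WAVE complex in growing axons, had 1.26, 1.76 and 1.76 RPKM in the females and 1.68, 2.12 and 0.994 RPKM in the males. Pcdh18 averaged 0.994 RPKM and the X-linked Pcdh19, a gene of an epilepsy with intellectual disability, 0.968 RPKM, both lowest in male C. Pcdh8 averaged 0.108 RPKM with 4 to 18 reads. Outside the delta groups, Pcdh12, known from endothelium, averaged 0.626 RPKM and Pcdh20 0.0873 RPKM. Endothelial markers summed to 0.767 to 2.37 RPKM over their 8 genes, with Pecam1 the highest at a mean of 0.399 RPKM.

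In the order of mean levels, only Cdh1 over Cdh2 and Cdh8 over Pcdh17 were neighbours whose ranges over the 6 libraries did not overlap. Cdh11 exceeded Pcdh9, Cdh9 exceeded Cdh18 and Cdh5 exceeded Cdh20 in 6 of 6 libraries, with overlapping ranges. All other neighbours changed places in at least 1 library, except at the bottom where Cdh23 and Cdh22 tied at 0 reads in male B and C. Levels rest on the deposited gene lengths. A later annotation (GENCODE M21) gives exons over 1.5 times longer for 4 members, 3.43 times for Cdh6, 2.11 for Cdh11, 1.83 for Pcdh9 and 1.71 for Pcdh7, so their place in the order depends on the gene model.

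Members lie in groups along the chromosomes, and neighbours could stand at like or unlike levels. The chromosome 15 stretch from Cdh6 (start 13034200) to Cdh18 (end 23474418), on GRCm38, spans 10.4 Mb and lists 6 protein-coding genes, of which 5 are the type II cadherins Cdh6, Cdh9, Cdh10, Cdh12 and Cdh18. All 5 stood above 1 RPKM and the sixth gene did not, and the neighbours Cdh10 and Cdh12 had overlapping ranges. On chromosome 14, between 79766772 and 93888732, Pcdh17 at 4.62 RPKM and Pcdh9 at 18.3 RPKM alternate with Pcdh8 at 0.108 RPKM and Pcdh20 at 0.0873 RPKM. On chromosome 8, Cdh3 (106510913 to 106556908) and Cdh1 (106603351 to 106670246) stand head to tail on the plus strand, 46.4 kb apart, at 0.807 and 15.9 RPKM. Further members on that chromosome include Cdh8 (99024471 to 99416471) and Cdh11 (102632995 to 102785111), both on the minus strand. Between Cdh8 and Cdh1 lie 83 other protein-coding genes, of which 48 stood at 1 RPKM or more. On chromosome 1, Cdh20, Cdh7 and Cdh19 follow each other within 6.21 Mb at 0.210, 0.761 and 3.53 RPKM.

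**Figure D2:**
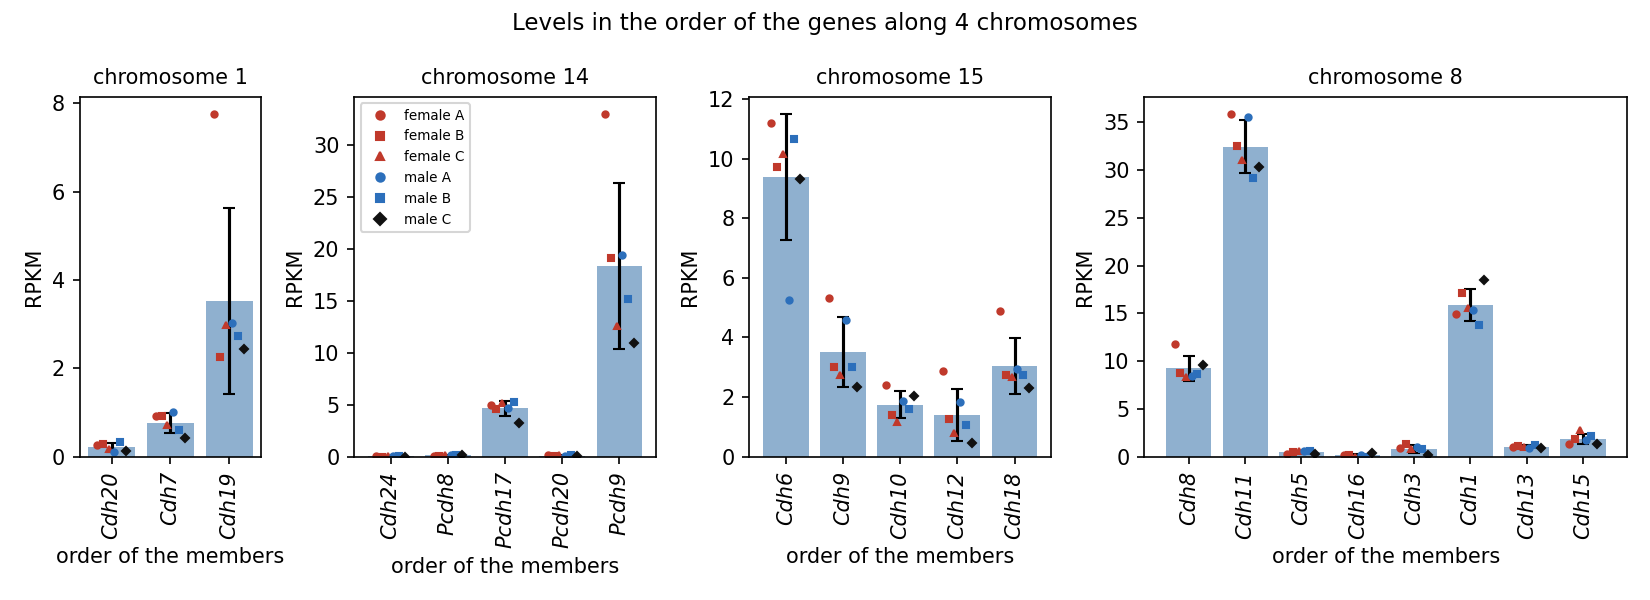
RPKM (linear axes, 1 scale per chromosome) of the members in their order along chromosomes 1, 14, 15 and 8; bars are means, error bars 1 SD over 6 libraries, points single libraries. On chromosome 8, Cdh11 at 32.4 and Cdh1 at 15.9 RPKM stand next to Cdh5 at 0.476 and Cdh3 at 0.807 RPKM.

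Genes whose products work with cadherins were taken from lists by role. Of 14 catenins and relatives, which link cadherin tails to actin, 9 stood at 1 RPKM or more, led by the alpha-catenins Ctnna2 at 73.2 ± 7.72 RPKM and Ctnna1 at 49.4 ± 6.90 RPKM and beta-catenin Ctnnb1 at 34.7 ± 1.47 RPKM (SD, n = 6). Ctnna2, the neuronal form, thus stood above every cadherin. Of the 9, Ctnnd1 and Vcl share 61.24% and 39.91% of their exon bases with another gene, so reads of that gene may bear on their values. Of 12 effectors of protocadherin tails, 11 passed 1 RPKM, led by the WAVE complex genes Brk1 at 245.4 ± 47.6, Cyfip2 at 64.2 ± 5.39 and Abi1 at 49.9 ± 6.15 RPKM (SD, n = 6). The exception, the phosphatase gene Ppp1ca, had 1 read over all libraries. It shares 16.1% of its exon bases with another gene, which leaves most of them unshared. The cause of the low count was not tested, and the value is not read as a level. Of 5 genes whose products process cadherins, 4 passed 1 RPKM, led by Ncstn, a subunit of gamma-secretase, at 46.3 RPKM and the metalloproteases Adam10 at 38.5 RPKM and Adam17 at 4.97 RPKM.

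Partners of the tip link differed from the tip-link cadherins. Lhfpl5, a subunit of the hair cell transduction channel complex, stood at 26.9 ± 3.21 RPKM (SD, n = 6), and Cib2, of the same complex, at 9.42 ± 5.48 RPKM, while the other 7 of the 9 listed averaged below 1 RPKM, Myo7a the highest of them at 0.907 RPKM. Cib2 shares 15.84% of its exon bases with another gene. Of 23 other genes with cadherin repeats, 7 passed 1 RPKM, led by the calsyntenins Clstn1 at 20.5 RPKM and Clstn3 at 15.5 RPKM and by Celsr2 at 3.24 RPKM. The list includes Pcdh11x, a protocadherin on the X chromosome whose symbol ends in a letter and so falls outside the 34; named after its values were seen, it averaged 1.21 ± 0.372 RPKM (SD, n = 6) and was highest in female A, at 1.84 RPKM, and lowest in male C, at 0.865 RPKM. In the comparisons of sex and of male C described next, edgeR called no gene of these 5 lists. DESeq2 called none by sex and 1 for male C, Fat3, a giant cadherin, at 0.0802 RPKM in male C against 0.364 to 0.661 RPKM in the other 5 libraries (log2 fold change -2.75, DESeq2 adjusted p = 0.00186, edgeR adjusted p = 0.582).

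**Figure D3:**
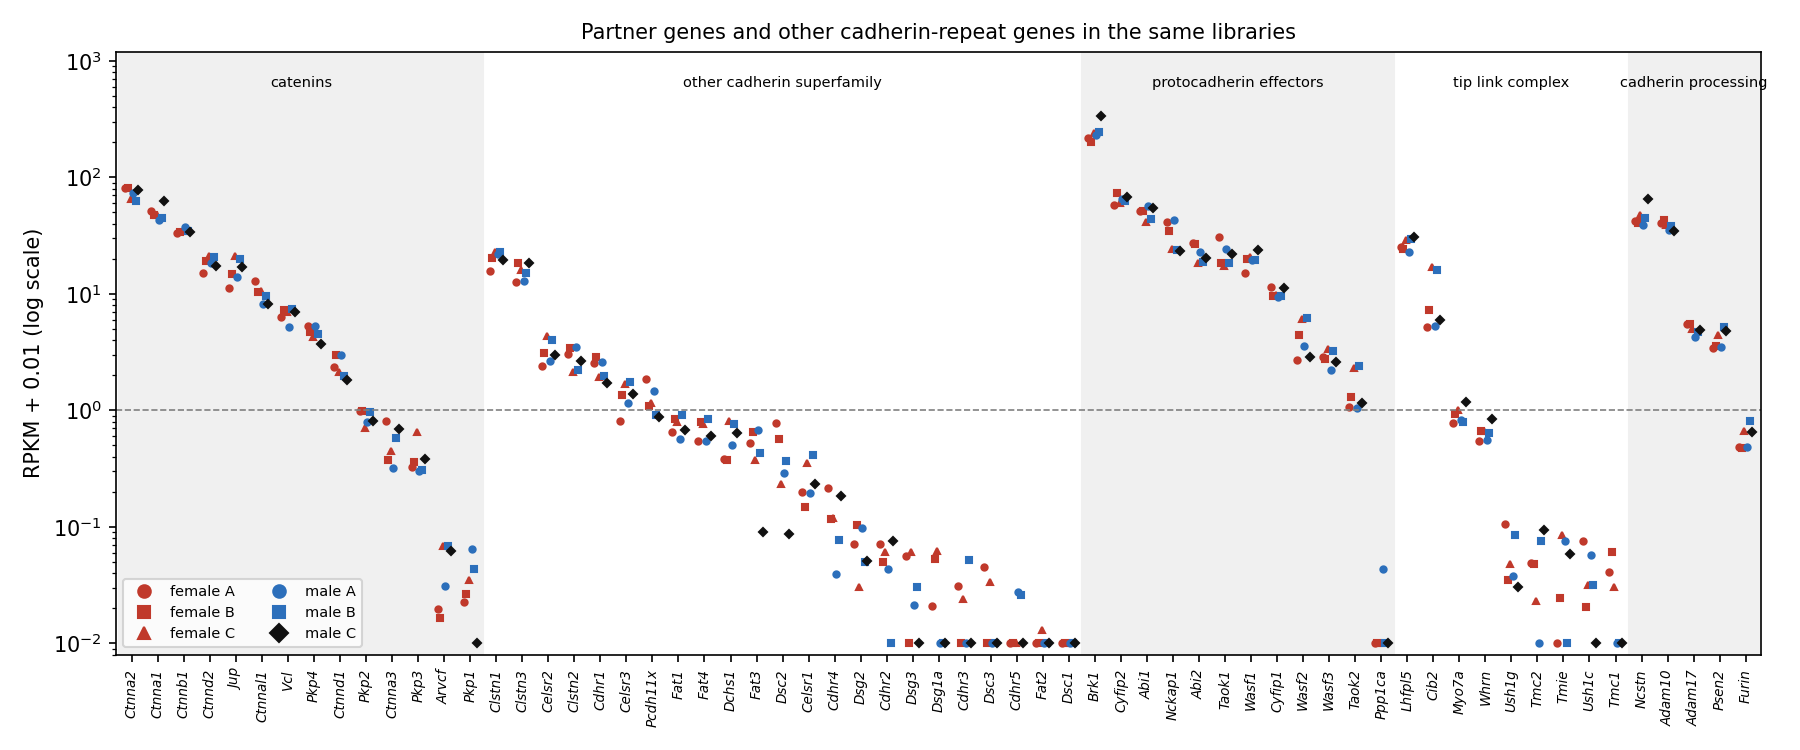
RPKM plus 0.01 on a log axis for partner genes in 5 lists, ordered by mean within each list; points are libraries, with the colours of the plot of member levels, and the dashed line marks 1 RPKM. Catenins reach 73.2 RPKM and WAVE complex genes 245.4 RPKM on average, and Lhfpl5 at 26.9 RPKM leads the tip link list.

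Females were compared with males in an edgeR quasi-likelihood fit over all genes with enough reads, which kept 28 of the 34 members. None of the 28 members was called at an adjusted p of 0.05, in a test that called 5 of 15026 genes (0.0333%), and DESeq2 called no member either. No member had an unadjusted p under 0.05, beside 1.10% of all tested genes, and none had sexes that did not overlap, beside 5.70%. Member log2 fold changes lay between -0.54 for Cdh16, which was 0.68 without male C and 0.07 without female C, and 0.66 for Cdh19, with a median of 0.18 beside -0.0050 over all tested genes. Cdh19, which had the smallest p of the members, stood at 7.77, 2.25 and 2.97 RPKM in females A, B and C and at 3.02, 2.72 and 2.44 RPKM in males A, B and C (log2 fold change 0.66, SE 0.41, 95% interval -0.24 to 1.56, edgeR unadjusted p = 0.135, adjusted p = 1.0). Only female A lay above the males, and without it the log2 fold change was -0.07. Pcdh9 had a log2 fold change of 0.51 (SE 0.33), which was 0.06 without female A and 0.32 without male C. The X-linked Pcdh19 had 1.02, 1.29 and 0.880 RPKM in the females and 1.16, 0.892 and 0.562 RPKM in the males, a log2 fold change of 0.28 (SE 0.30, 95% interval -0.37 to 0.94), which was 0.05 without male C. Intervals this wide leave differences of that size undetectable at 3 libraries per sex. The interval was narrowest for Cdh11, -0.29 to 0.42. Without male C, the median of the members was 0.05.

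**Figure D4:**
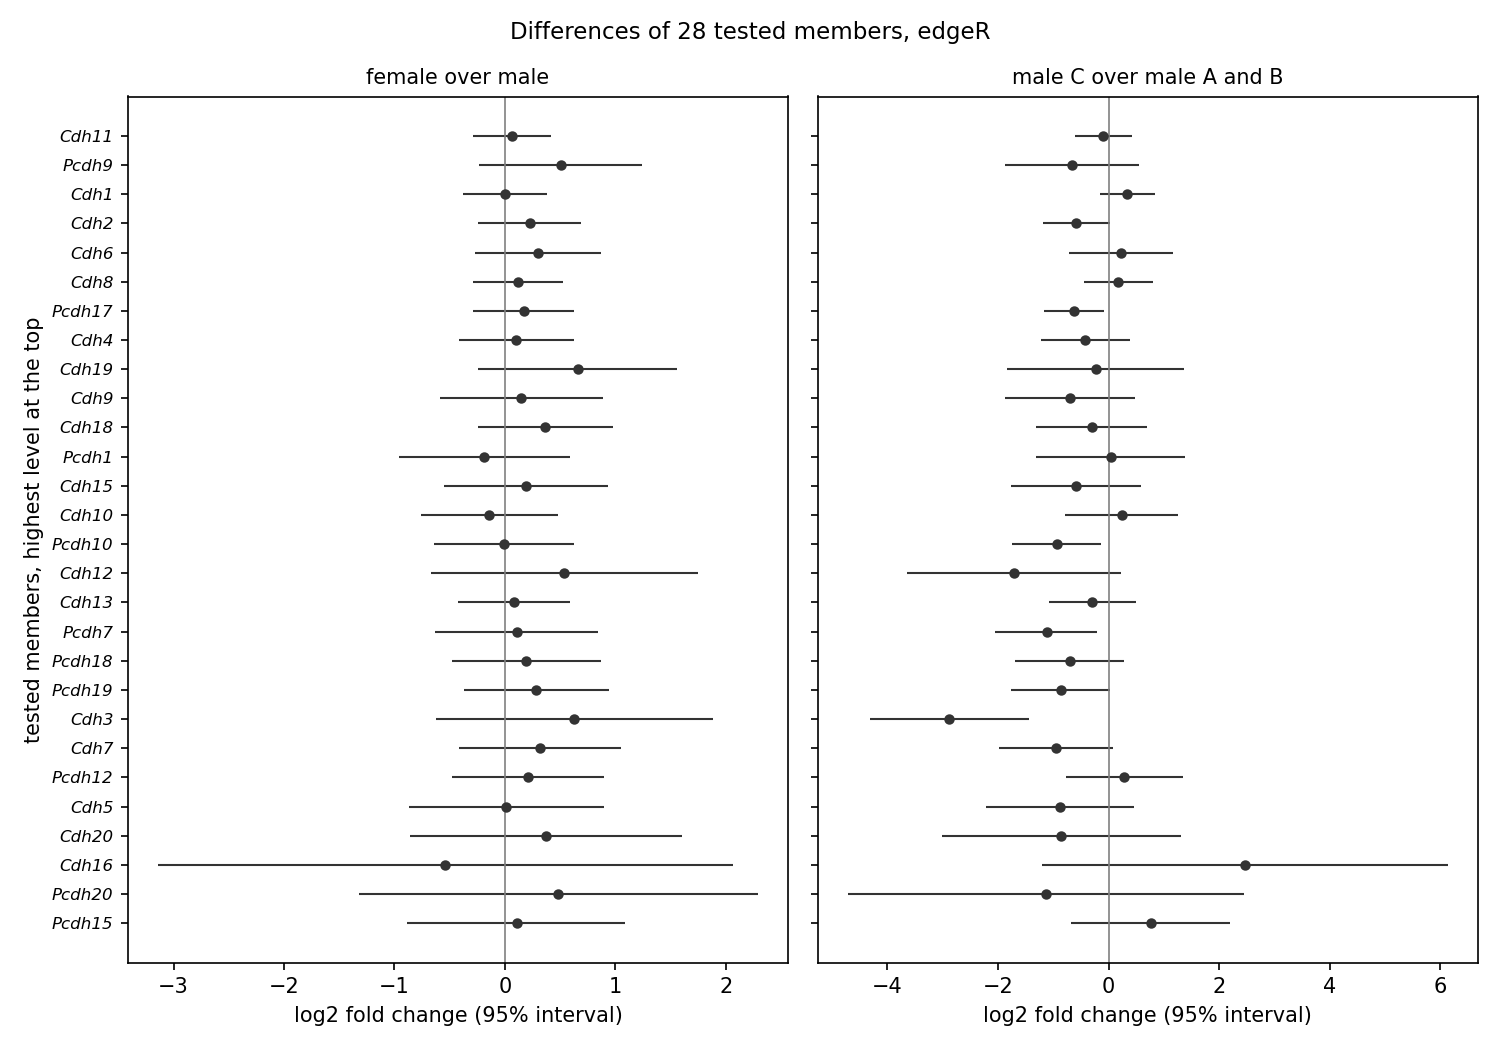
Log2 fold changes (points) with 95% intervals (lines) from edgeR for the 28 tested members, the highest level at the top; left, female over male, right, male C over male A and B. All 28 intervals in the left panel span 0; in the right panel those of Cdh3, Pcdh7, Pcdh10 and Pcdh17 lie below 0, before adjustment over all genes.

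Male C was set against male A and B in a model that also held sex, so that the female libraries informed the spread alone and the lone library was assumed to vary like the others. This library was 1 embryo, a later record and a shorter genotype label at once, and these cannot be told apart. edgeR called no gene (0% of 15026), with 1136 genes at an unadjusted p under 0.05. DESeq2 called 51 of 12986 genes (0.393%), 1 of them a member, Cdh3. Of the 28 tested members, 4 had an unadjusted edgeR p under 0.05 and all were lower in male C (14.3%), beside 4.18% of all tested genes that were lower at that p.

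Cdh3 (ENSMUSG00000061048) had 0.118 RPKM in male C, against 1.00 and 0.766 RPKM in male A and B and 0.840, 1.32 and 0.802 RPKM in female A, B and C. These are 7 reads in male C, with a Poisson 95% interval of 2.81 to 14.4, against 53 to 128 reads in the other 5 libraries, and the groups did not overlap. Its log2 fold change was -2.88 (SE 0.61, edgeR adjusted p = 0.582), and with DESeq2 it was -2.89 (adjusted p = 0.0496), so the call depends on the tool; over all alternatives the adjusted p ran from 0.0496 to 0.931. The other 3 were Pcdh7 (log2 fold change -1.12, SE 0.39), Pcdh10 (-0.94, SE 0.34) and Pcdh17 (-0.62, SE 0.23), with edgeR adjusted p of 0.62, 0.635 and 0.636. Pcdh7 had 0.542 RPKM in male C against 0.862 to 1.30 RPKM in the other 5 libraries, and for all 3 male C lay below the other libraries. Cdh12, with 0.441 RPKM in male C against 0.774 to 2.88 RPKM in the other 5 libraries, had a log2 fold change of -1.71 (SE 0.83) and passed neither test (edgeR adjusted p = 0.687, DESeq2 adjusted p = 0.527).

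The lower values in male C went beyond these members. Male C was the lowest of the 6 libraries for 14 of the 28 tested members (50.0%), beside 22.9% of all tested genes. The 14 were Pcdh9, Cdh2, Pcdh17, Cdh9, Cdh18, Cdh15, Pcdh10, Cdh12, Cdh13, Pcdh7, Pcdh18, Pcdh19, Cdh3 and Cdh7, which took in 6 of the 7 tested delta protocadherins; the seventh, Pcdh1, did not follow. Cdh1 was the reverse, with 18.5 RPKM in male C against 13.8 to 17.1 RPKM in the other 5 libraries. Of the 28 members, 20 had a negative log2 fold change (71.4%), beside 53.0% of all tested genes, and the median was -0.59, beside -0.03. Without male B the median was -0.33. In bulk RNA, fewer cells of a type and less RNA per cell cannot be told apart. Marker lists differed in male C in both directions. The 8 genes of large-diameter neurons summed to 62.4 RPKM in male C against 70.4 to 88.5 RPKM in the other 5, and 4 of the 8 had an unadjusted p under 0.05. DESeq2 called 2 of them, Pvalb, at 0.840 RPKM in male C against 4.55 to 11.3 RPKM, and Calb1, at 0.972 RPKM against 3.82 to 5.72 RPKM, both named after their values were seen, whereas Etv1, the highest of the list, had 38.9 RPKM against 27.7 to 39.7 RPKM. Endothelial markers summed to 0.767 RPKM in male C against 1.42 to 2.37 RPKM, and red cell genes, led by Hbb-bs, to 41.3 RPKM against 49.3 to 1256 RPKM. Fibroblast markers summed to 149.7 RPKM in male C against 152.5 to 175.2 RPKM. In these low lists most tested genes had a negative log2 fold change in male C. They were 7 of 8 large-diameter, 6 of 6 endothelial, 5 of 5 red cell and 6 of 6 fibroblast genes. Other lists had their highest sum in male C. Nonpeptidergic nociceptor genes, led by P2rx3, summed to 504.5 RPKM in male C against 353 to 424.3 RPKM. C-low-threshold mechanoreceptor genes, led by Fam19a4, summed to 175.9 RPKM against 129.6 to 163.8 RPKM. Pan-neuronal genes, led by Stmn2, summed to 9570 RPKM against 7369 to 8865 RPKM, and glial genes to 1096 RPKM against 915 to 1075 RPKM. Such sums rest mostly on the most abundant genes of a list. In the same order, 2 of 8, 1 of 4, 4 of 8 and 7 of 12 tested genes had a negative log2 fold change in male C. Peptidergic nociceptor genes, led by Calca, summed to 1403 RPKM in male C, inside the range of the others, 1040 to 1638 RPKM. Calca made up most of this sum, and 3 of the 6 genes had a negative log2 fold change. Trpv1 of that list, named after its values were seen, had 52.17 RPKM in male C against 25.77 to 34.25 RPKM. The part of these markers in the member values was not tested.

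Female A stood at the other end. It was the highest library for 11 of the 28 tested members (39.3%), beside 19.8% of all tested genes. The 11 were Cdh11, Pcdh9, Cdh6, Cdh8, Cdh19, Cdh9, Cdh18, Cdh10, Cdh12, Pcdh20 and Pcdh15, which took in 8 of the 11 tested type II cadherins but no type I cadherin. Summed type II RPKM was 83.7 in female A against 59.6 to 65.2 in the other 5 libraries, while summed type I RPKM was 32.4 against 31.2 to 37.2. The spread between libraries, as the biological coefficient of variation of the sex fit, had a median of 0.284 over the 28 members beside 0.238 over all tested genes. It was lowest for Cdh11 at 0.161 and highest for Cdh16 at 0.896, a gene with 0 to 15 reads per library. Among members above 0.5 RPKM, Cdh3 at 0.479 and Cdh12 at 0.465 varied most.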

How the data were processed

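RNA of EGFP-positive sorted cells (10 ng per library) was made into cDNA with a SMARTer low-input kit, and libraries were given 12 PCR cycles, per the labels' protocols. The deposited read counts come from featureCounts 1.4.5 on GRCm38.p2, per the submitters' processing notes; the sources used here do not give the strand setting, the annotation release, the settings of the aligner or the fate of multi-mapping reads, so reads of overlapping antisense genes cannot be separated. The authors' deposited CPM and RPKM equal values recomputed from the counts to within 4.5e-11 and were used as a check and as 1 alternative.

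Symbols came from GENCODE M21 by Ensembl identifier (40254 of 41388, 97.26%). RPKM was recomputed with TMM library sizes in edgeR 4.0.16 (R 4.3.3). Genes kept by filterByExpr were tested with edgeR's quasi-likelihood test, two-sided, with Benjamini-Hochberg adjustment at 0.05 over all genes tested, by sex and, with sex in the model, for male C. Standard errors were taken from the fold change and the F statistic. DESeq2 1.42.0 was an alternative, as were other scaling factors, filters, thresholds and each library left out. P-values measure the spread between these libraries, which are pools of 1 to 3 embryos. Library letters did not pair the samples: deviations of same-lettered libraries correlated at 0.284, -0.294 and -0.0773.

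The members and lists were chosen with earlier results of these data known. By rule, values by library, or the lowest, median and highest, are given for members at 1 RPKM or more, members called and the member of smallest p in each comparison; of each partner list the 3 highest genes and any called are named, and of each marker list the highest gene and those at 0. Any other gene outside the 34 was picked with its values in view. Some genes of the lists are not reported here.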

Additional observations from a re-analysis of the deposited data

Results flagged for a closer look

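In 5 of the 18 members at 1 RPKM or more, 1 library lay far from the other 5 by Dixon's ratio of the gap to the whole range, past the critical value for 6 samples. Chance alone gives this in about 1 of 20 groups if the groups are independent, whereas the members share the same 6 libraries. The share of all genes flagged by this rule is not given, so the 5 cannot be read as an excess among the members. Cdh19 had 7.77 RPKM in female A (ratio 0.860), Cdh18 had 4.88 RPKM in female A (ratio 0.749) and Cdh8 had 11.8 RPKM in female A (ratio 0.638), each the highest library. Pcdh17 had 3.20 RPKM in male C (ratio 0.698) and Cdh6 had 5.26 RPKM in male A (ratio 0.686), each the lowest library. Male A was also the library with the most red cell RNA, at a summed 1256 RPKM, against 41.3 RPKM in male C, 164.6 RPKM in male B and 49.3, 123.3 and 222.9 RPKM in female A, B and C; its part in the Cdh6 value was not tested.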

How the results depend on the processing

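Other scaling factors (RLE, upper quartile), a filter of 1 CPM in 3 libraries and a threshold of 0.10 left 0 members called in both comparisons. Without a filter, 12 genes were called by sex in place of 5, and 19 for male C in place of 0; DESeq2 called 51 genes for male C, and 1 member, Cdh3, at a log2 fold change of -2.89 and an adjusted p of 0.0496. For these changes the cause was not tested. Without a sex term, an alternative chosen after seeing the data, male C against the other 5 libraries gave 0 calls and a log2 fold change of -2.98 for Cdh3. Leaving out each library in turn gave 16 to 20 members at 1 RPKM or more in place of 18 (14 reached it in every library, 23 reached a mean of 0.5 RPKM and 25 a mean of 1 CPM), and a median coefficient of variation of 0.269 to 0.309, highest without female B. Leaving out each female library in turn gave 2 to 6 members at an unadjusted edgeR p under 0.05 for male C in place of 4, all lower in male C. Without male A or male B, which left a single male for comparison, not every such member was lower in male C. The log2 fold change of Cdh19 by sex ran between -0.0655 without female A, and 0.969 without female B. That of Cdh16, a gene with at most 15 reads, ran between -1.19 without male B and 0.678 without male C. It was 0.0687 without female C and 0.676 with male C as a covariate, against -0.542. Pcdh9, Pcdh19 and Cdh3 by sex did not reverse, nor did Cdh3, Pcdh7, Pcdh10, Pcdh17, Cdh2 and Cdh12 for male C. Other members were not followed this way. A value near 0 could change sign, as that of Cdh1 by sex did, from 0.000521 to -0.00903 with RLE factors. With the letter as a replicate block, 5 genes and 0 members were called by sex; the letters share only a name, and female C correlated best with male B (0.549). Beside these, 65 summary values and 279 single values stayed on their side of the threshold or within the spread. Depth limits members of a few reads, and 1 library limits every statement on male C.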
